A study of Mus musculus with 6 samples.

Results

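Cortical layer identity genes are transcripts whose levels mark excitatory neurons of particular depths of the neocortex. The 9 genes described here are Cux1, Cux2 and Lamp5 of the upper layers, Rorb of layer 4, Bcl11b and Fezf2 of layer 5, Pcp4 of the deep layers, and Tbr1 and Foxp2 of layer 6. They were taken by name from the 19938 genes of the array that have a probe set mapping to a single gene symbol, and all 9 had exactly 1 such probe set. The samples were adult forebrain cortex from mice of C57BL/6 background. The 3 animals labelled Dicer KO carry CamKII-Cre and Dicer flox/flox, so Cre is driven by the CamKII promoter, which is active in excitatory forebrain neurons, and interneurons and glia are expected to keep Dicer. The 3 controls are littermates with either CamKII-Cre and a single floxed Dicer allele or Dicer flox/flox without Cre, and which control has which genotype is not labelled. The age of the animals beyond "adult" is not given in the labels. Total RNA of 1 animal was hybridised to each Affymetrix whole-transcript array. Values are the deposited log2 expression values, on which a difference of 1 is a doubling.

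The layers of the cortex are built during embryonic neurogenesis, when transcription factors that repress or activate each other assign newborn excitatory neurons to callosal, subcerebral or corticothalamic fates. Many of these factors stay on in the adult neuron and serve as markers of its layer. Dicer cuts microRNA precursors into mature microRNAs, which lower the levels of the mRNAs that they pair with through their seed. The CamKII promoter becomes active after these neurons have been born and placed, so the comparison asks how marker levels stand when Dicer is targeted in neurons that already have a layer.

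The targeted gene was looked at first. Dicer1 read 9.58, 9.68 and 9.46 in the arrays labelled Dicer KO, against 9.17, 9.21 and 9.18 in the controls. The difference of 0.39 ± 0.087 (SE) goes against the label and did not pass the threshold (limma adjusted p = 0.102), and which exons its probe set reads is not known here. So every direction given here is that of the arrays by their label. The tissue label fitted the neuronal markers: Slc17a7, the vesicular glutamate transporter of cortical excitatory neurons, read 12.06 to 12.27 in the arrays labelled Dicer KO and 12.12 to 12.37 in the controls, where array medians over all rows were 7.13 to 7.22. Control array 1 stood apart. Its 12 olfactory bulb markers averaged 8.34, against 7.07 and 7.18 in control arrays 2 and 3 and 7.09 to 7.16 in the arrays labelled Dicer KO.

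None of the 9 layer genes passed an adjusted p of 0.05 over all genes, where 0.281% of all genes did and 0.191% were called lower (limma, Benjamini-Hochberg over 19938 genes, two-sided). At an unadjusted p under 0.05 there were 2, both lower in the arrays labelled Dicer KO, against 14.4% of all genes and 21.2% of the 9969 brighter genes (mean above the median), to which all 9 belong. The groups did not overlap for the same 2, Lamp5 and Pcp4, both lower, where 20.3% of all genes (27.8% of the brighter) showed no overlap and 11.0% were lower without overlap. The other 7 genes differed by less than 0.2 in size. Each of their 95% intervals included 0, the narrowest being that of Tbr1, -0.21 to 0.18, and the widest that of Foxp2, -0.29 to 0.50. The median difference over the 9 genes was 0.010, with 5 above 0 and 4 below, beside -0.0092 over all genes. That split of 5 to 4 is not a direction of the group, since subtracting array medians gave 4 above 0 and 5 below, and a median of -0.017.

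**Figure D1:**
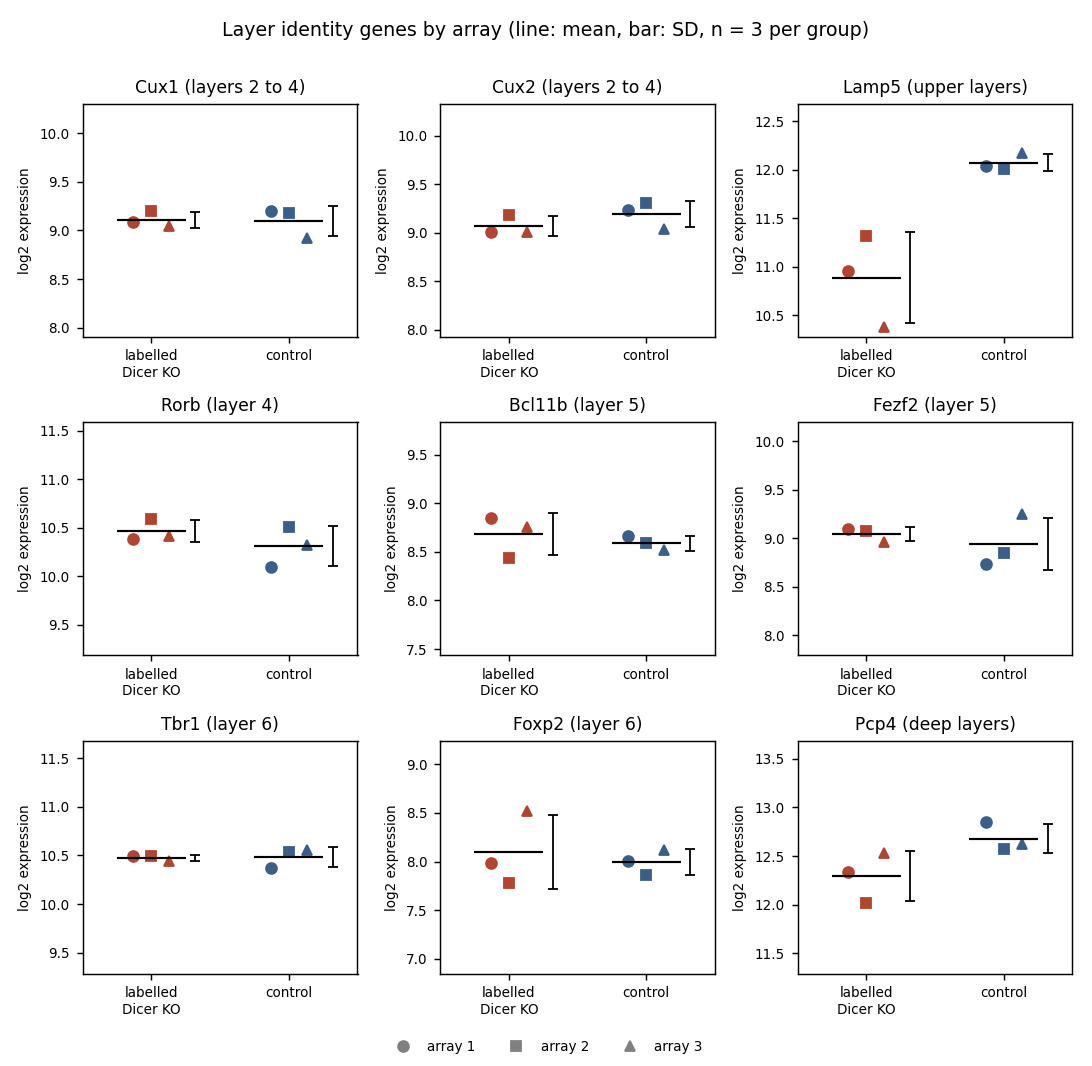
Log2 expression of each layer gene (vertical axes, all spanning the same height) in the 3 arrays labelled Dicer KO, red, and the 3 controls, blue, with the group mean as a line and the SD as a bar. Marker shape gives the array number within its group. Lamp5 lies lower in every array labelled Dicer KO, Pcp4 is lower with a narrow gap, and the groups of the other 7 genes overlap.

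Lamp5 had by far the largest difference of the set. It encodes a membrane protein of the LAMP family and marks upper layer excitatory neurons, and in the mouse cortex also a class of interneurons that includes neurogliaform cells. Its log2 expression was 10.96, 11.31 and 10.39 in the arrays labelled Dicer KO, against 12.04, 12.01 and 12.17 in the controls. All 3 arrays labelled Dicer KO were lower than every control, with a gap of 0.70 between the nearest arrays. The arrays labelled Dicer KO averaged 10.89 ± 0.47 and the controls 12.07 ± 0.087 (SD, n = 3 each), so the animals labelled Dicer KO were also the more scattered group. The difference was -1.19 ± 0.20 (SE; 95% interval -1.64 to -0.74), which is 2.28-fold lower. Of all 19938 genes, 14 had a difference of larger size and 5 had one further below 0.

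The adjusted p of Lamp5 was 0.0548 (limma), just outside the threshold. It depended on single arrays. Without labelled KO array 3, the array in which Lamp5 was lowest, the difference was smaller, at -0.94 ± 0.12 (SE), but the adjusted p was 0.0365. Without any other single array the difference lay between -1.40 and -1.14 and the adjusted p between 0.0534 and 0.206. Over all 16 refits the adjusted p ranged from 0.00512 to 0.297. In bulk cortex, fewer Lamp5 cells and less Lamp5 RNA per cell cannot be told apart.

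**Figure D2:**
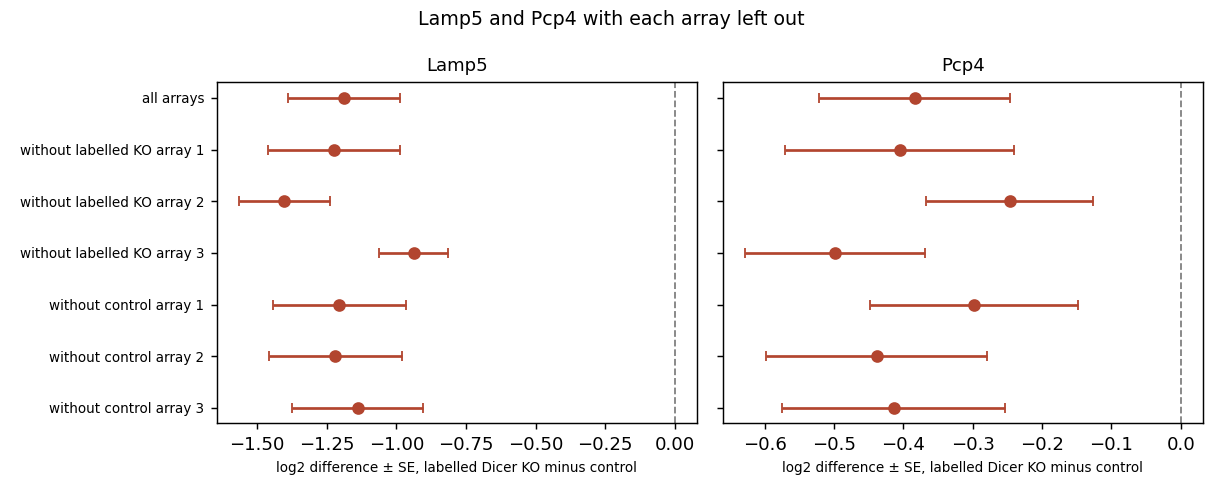
Log2 difference of Lamp5 (left) and Pcp4 (right), arrays labelled Dicer KO minus controls, with its SE, over all 6 arrays and with each array left out in turn. Lamp5 stays between -1.40 and -0.94 and Pcp4 between -0.50 and -0.25, below 0 throughout.

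Lamp5 was next set against the other layer genes within each array, which removes anything common to both genes in that array. Lamp5 minus Cux2 was 1.96, 2.13 and 1.38 in the arrays labelled Dicer KO, against 2.81, 2.71 and 3.13 in the controls. Lamp5 minus Tbr1 was 0.46, 0.82 and -0.058 in the arrays labelled Dicer KO, against 1.67, 1.47 and 1.62 in the controls. Lamp5 was taken for this comparison because its difference is the largest, and 7 of its 8 partners differ by less than 0.2, so those pairings mostly restate the Lamp5 difference and are a description. In the pairing with Pcp4 the groups overlapped, at -1.38, -0.71 and -2.14 in the arrays labelled Dicer KO, against -0.81, -0.56 and -0.44 in the controls. The exact permutation test over arrays (two-sided) gave 0.2 for Pcp4 and 0.1 for each of the others, or 0.114 adjusted over the 8 pairings, and with 3 against 3 arrays it cannot give less than 0.1.

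Cux1 and Cux2, the homeobox factors of upper layer neurons that shape their dendrites and spines, did not share the Lamp5 difference in size. Cux1 read 9.09, 9.20 and 9.04 in the arrays labelled Dicer KO, against 9.20, 9.18 and 8.92 in the controls, a difference of 0.010 ± 0.10 (SE; limma adjusted p = 0.980). Cux2 read 9.004, 9.18 and 9.01 in the arrays labelled Dicer KO, against 9.23, 9.30 and 9.04 in the controls, a difference of -0.13 ± 0.10 (SE; limma adjusted p = 0.634) that was -0.069 without control array 2 and -0.20 without control array 3. For both genes the groups overlap and the lowest control is array 3. The 95% interval of Cux1 ran from -0.22 to 0.24 and that of Cux2 from -0.35 to 0.10, and neither reaches the Lamp5 interval. The Cux genes had the most alike array patterns of any pair of layer genes, with Pearson r = 0.77 over the 6 arrays, a description only.

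Rorb encodes a nuclear receptor of layer 4 neurons, the main target of sensory thalamic input. It read 10.39, 10.59 and 10.41 in the arrays labelled Dicer KO, against 10.10, 10.51 and 10.32 in the controls. The highest value in each group was array 2, and control array 1 was the lowest of all 6. The difference was 0.15 ± 0.12 (SE; limma adjusted p = 0.613), smaller than the control range of 0.41, and it was 0.049 without control array 1 and 0.25 without control array 2.

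Bcl11b and Fezf2 are zinc finger transcription factors of layer 5 neurons that project below the cortex. In the mouse, Fezf2 acts upstream of Bcl11b, also called Ctip2, which is needed for the corticospinal tract. Bcl11b read 8.85, 8.44 and 8.76 in the arrays labelled Dicer KO, against 8.67, 8.59 and 8.51 in the controls, a difference of 0.092 ± 0.12 (SE; limma adjusted p = 0.781). Labelled KO array 2 was the lowest of all 6 arrays and labelled KO array 1 the highest, so the controls lie inside the range of the arrays labelled Dicer KO, and the Bcl11b difference was 0.0067 when labelled KO array 1 was dropped and 0.21 when array 2 was. Fezf2 read 9.10, 9.08 and 8.96 in the arrays labelled Dicer KO, against 8.73, 8.85 and 9.24 in the controls, a difference of 0.10 ± 0.13 (SE; limma adjusted p = 0.778). Here the controls were the scattered group, with a range of 0.51 against 0.13 in the arrays labelled Dicer KO, and the Fezf2 difference was -4.17e-06 without control array 1.

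Pcp4, a small calmodulin-binding protein of deep layer neurons, was the other gene whose groups did not overlap. It read 12.34, 12.02 and 12.53 in the arrays labelled Dicer KO, against 12.85, 12.57 and 12.62 in the controls. The gap between the nearest arrays was 0.044, far smaller than the range of 0.51 within the arrays labelled Dicer KO. The difference was -0.38 ± 0.14 (SE; 95% interval -0.70 to -0.072), 1.30-fold lower, with an unadjusted p of 0.0214 and an adjusted p of 0.250 (limma). Its adjusted p lay between 0.0729 and 0.508 over 16 refits, none past the threshold, and without labelled KO array 2 the difference was -0.25. Leaving out control array 1, the array with high olfactory bulb markers and the highest Pcp4, gave -0.30.

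Tbr1 was the steadiest of the set. This T-box factor marks corticothalamic neurons of layer 6 and represses the layer 5 programme in the embryo. It read 10.49, 10.49 and 10.44 in the arrays labelled Dicer KO, against 10.37, 10.54 and 10.56 in the controls. The arrays labelled Dicer KO lay within 0.051 of each other and inside the control range. The difference was -0.011 ± 0.086 (SE; 95% interval -0.21 to 0.18; limma adjusted p = 0.972).

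Foxp2, a forkhead factor of layer 6 corticothalamic neurons that is also expressed in striatum and thalamus, is reported to be a target of miR-9 and miR-132 in mouse brain. For this reported link the mature sequences are shown, from RefSeq on GRCm38.p6, with the seed (bases 2 to 8) in capitals.
mmu-miR-9-5p: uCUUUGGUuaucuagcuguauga
mmu-miR-132-3p: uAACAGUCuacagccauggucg
Their seeds differ. Mature microRNAs are not read by these arrays. The precursor gene Mir9-1 was at 0.31 ± 0.25 and Mir132 at -0.0070 ± 0.086 (SE), neither past the threshold; both are named for this link and not by the naming rule.

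Foxp2 read 7.99, 7.78 and 8.52 in the arrays labelled Dicer KO, against 8.002, 7.86 and 8.12 in the controls. In both groups array 3 was the highest and array 2 the lowest, and the groups overlap. The difference was 0.10 ± 0.17 (SE; 95% interval -0.29 to 0.50; limma adjusted p = 0.838), and without labelled KO array 3 it was -0.11. Labelled KO array 3 was also the highest array for markers of striatal neurons, which also express Foxp2, and of microglia. It was the highest as well for markers of astrocytes (10.73) and Lamp5 interneurons (9.33), where the highest control was at 10.25 and 9.24. For oligodendrocyte markers (10.05) and layer regulators (9.53) it was the highest by little, with control array 3 at 10.04 and 9.51. The 16 striatal projection neuron markers averaged 7.89, 7.79 and 8.28 in the arrays labelled Dicer KO and 7.79 to 7.91 in the controls, with 10 of 16 above 0. The 9 microglia markers averaged 7.98 to 8.79 in the arrays labelled Dicer KO and 8.15 to 8.50 in the controls, with 5 of 9 above 0. The part of these cells in the Foxp2 values was not tested.

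**Figure D3:**
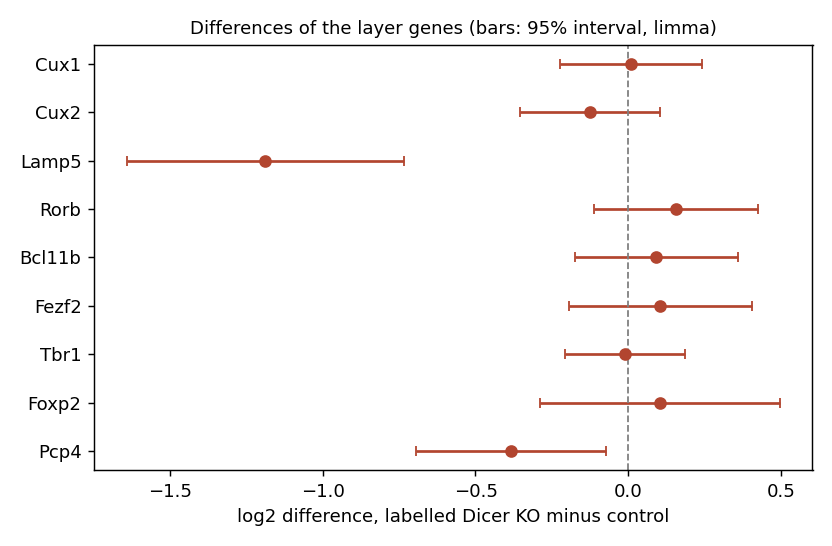
Log2 difference (horizontal axis) of each layer gene, arrays labelled Dicer KO minus controls, with its 95% interval from limma. The intervals of Lamp5 and Pcp4 lie below 0, at -1.64 to -0.74 and -0.70 to -0.072, and those of the other 7 genes include 0.

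The genes most like each layer gene in array pattern were looked up among 9734 brighter named genes, by Pearson r over the 6 arrays. With so few arrays many genes reach a high r, and all share the same libraries. Lamp5 was closest to Ngef, to Glo1, the glyoxalase that detoxifies methylglyoxal, and to Necab3, with r of 0.9936, 0.9935 and 0.9927. In all, 110 genes had an r over 0.95 with Lamp5, against 22 for Cux1 and 7 for Tbr1. Ngef was at -0.43 and did not pass (limma adjusted p = 0.0888). Foxp2 was closest to Mdk, the growth factor midkine, Trem2, a receptor of microglia, and Galnt14, with r of 0.9994, 0.9934 and 0.9930. Pcp4 was closest to Calr, the endoplasmic reticulum chaperone calreticulin, at 0.9909, and Cux1 to the Mediator subunit gene Med20 at 0.9874. The closest to Cux2 was Esd at 0.9928, to Rorb Hars2 at 0.9963, to Fezf2 Ccdc28a at 0.9913, to Tbr1 Crot at 0.9953 and to Bcl11b Sptbn1 at 0.9447. No layer gene was among the 3 closest of another.

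Other genes were read from fixed lists that leave out the 9, of layer markers, of regulators and of reported targets of Fezf2, Tbr1 and Foxp2. Not all are layer markers, since Gad1 and Slc17a7 are among the targets. Of 101 measured genes, none passed the threshold, 62 lay below 0 (61.4%, against 52.7% of all genes and 49.5% of the brighter), and the median difference was -0.032, which was -0.058 with labelled KO array 3 left out and -0.011 with array 2 left out. At an unadjusted p under 0.05 there were 27, 17 lower and 10 higher, which is 26.7%, against 14.4% of all genes and 21.2% of the brighter genes, to which 82 of the 101 belong. Dropping labelled KO array 2 left 16 such genes, dropping labelled KO array 1 left 17, and dropping control array 2 left 18. Groups did not overlap for 20 of them, or 19.8%, against 20.3% of all genes and 27.8% of the brighter. An adjusted p under 0.1 was reached by 3, all lower: Wfs1, Kitl and Tafa1. Of the 9 layer genes 1, Lamp5, reached it, and 1.60% of all genes.

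The upper layer list held both directions. Of 19 measured genes 13 lay below 0, with a median of -0.048, which ran from -0.13 without control array 3 to -0.044 without control array 2. Wfs1, the endoplasmic reticulum protein wolframin, read 8.37, 8.26 and 8.71 in the arrays labelled Dicer KO, against 9.08, 9.17 and 9.29 in the controls. All arrays labelled Dicer KO were lower, by -0.73 ± 0.13 (SE; limma adjusted p = 0.0565), and without labelled KO array 3 the adjusted p was 0.0247. Wfs1 also marks hippocampal CA1 neurons, and the 12 hippocampal markers, Wfs1 among them, had 6 above 0 and a median of -0.013. The part of hippocampal cells in the Wfs1 value was not tested. Kitl, the ligand of the receptor Kit, was at -0.50 ± 0.11 (SE; limma adjusted p = 0.0888). On the other side were Plxnd1, a semaphorin receptor, at 0.47 ± 0.14, and Unc5d, a netrin receptor, at 0.48 ± 0.16 (SE), neither past the threshold.

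The layer 4 list had 5 of 9 genes below 0 and a median of -0.051, which was 0.015 without control array 1. Tafa1, which encodes a secreted neuronal protein, read 9.89, 9.51 and 9.27 in the arrays labelled Dicer KO, against 10.31, 10.49 and 10.56 in the controls. It was lower in all arrays labelled Dicer KO, by -0.89 ± 0.15 (SE; limma adjusted p = 0.0548), outside the threshold by as little as Lamp5. The other members of smallest p were Nell1 at -0.35, the potassium channel gene Kcnh5 at -0.31 and Endou at 0.30.

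The layer 5 list had 14 of 20 genes below 0 and a median of -0.11, which was -0.041 without control array 3. Tmem200a was at -0.44 ± 0.099 (SE; limma adjusted p = 0.103), the sulfotransferase gene Chst8 at -0.28 and the nicotinic receptor subunit gene Chrna6 at -0.29. Htr2c, a serotonin receptor, was at 0.57 ± 0.20 (SE; limma adjusted p = 0.233), and its groups overlapped. Layer 6 and subplate markers had 14 of 21 below 0 and a median of -0.058 (0.0088 without labelled KO array 2), with no gene whose groups were separate. The smallest p values there belonged to Crym, a thyroid hormone binding protein, at -0.36, the cell cycle inhibitor gene Rprm at 0.30, the adaptor gene Sla at -0.31 and the synaptic vesicle gene Synpr at -0.36. Each shrank with 1 array left out: without control array 3 Crym was at -0.20 and Sla at -0.18, Rprm was at 0.18 without labelled KO array 1, and Synpr was at -0.15 without control array 1.

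Regulators of layer and projection neuron identity were split, with 17 of 33 above 0 and a median of 0.015, which was -0.046 without control array 1. Nfia and Nfib, nuclear factor I proteins that act in cortical neurons and glia, were at 0.45 ± 0.11 and 0.28 ± 0.10 (SE; limma adjusted p = 0.130 and 0.259). Sox11, a factor of young neurons, was at 0.44, and Neurod6, a bHLH factor of excitatory neurons, at -0.45 ± 0.15 (SE; limma adjusted p = 0.216). Beside them, 8 of 10 astrocyte markers lay above 0, with a median of 0.19 that was 0.089 without labelled KO array 3. Their list means were 10.34, 10.24 and 10.73 in the arrays labelled Dicer KO and 10.11 to 10.25 in the controls. The part of astrocytes in the values of Nfia and Nfib was not tested.

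Reported targets of Fezf2, Tbr1 and Foxp2 had 11 of 16 genes below 0 and a median of -0.098, which was -0.049 without labelled KO array 2. Ntng1, the axonal membrane protein netrin G1 and a reported target of Tbr1 in the mouse, was at -0.63 ± 0.17 (SE; limma adjusted p = 0.144), and leaving out labelled KO array 3 gave -0.82 and a pass (adjusted p = 0.0408). Ntng1 is also in the list of thalamic markers. Grin2b, an NMDA receptor subunit gene that Tbr1 is reported to activate, was at -0.28 (-0.16 without labelled KO array 3) and the cadherin gene Cdh8 at -0.23 (-0.099 without control array 3 and -0.36 without control array 1).

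**Figure D4:**
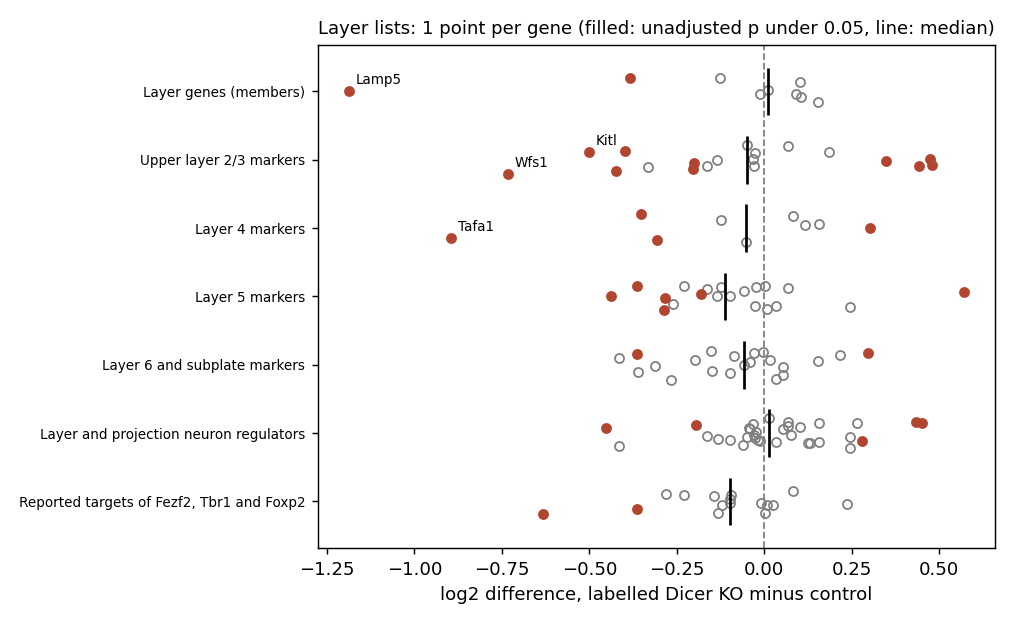
Log2 difference of each gene (horizontal axis), arrays labelled Dicer KO minus controls, by list, with filled points for an unadjusted p under 0.05 and a line at the list median. Lamp5 at -1.19, Tafa1 at -0.89 and Wfs1 at -0.73 lie furthest below 0, and the list medians lie between -0.11 and 0.015.

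General markers of excitatory neurons were read beside these layer genes. Of 16 measured, 10 lay below 0 with a median of -0.16, which was -0.069 without labelled KO array 3, and the list averaged 10.70, 10.73 and 10.55 in the arrays labelled Dicer KO, against 10.75 to 10.85 in the controls. Nrgn, the calmodulin-binding postsynaptic protein neurogranin, fell by 0.60 ± 0.088 on the log2 scale (SE; limma adjusted p = 0.0413), the 1 gene of the list past the threshold, and like 55 others of all genes it passed in a fit that calls none when any array but labelled KO array 3 is left out. Nptx1, a neuronal pentraxin, was at 0.41 and Kcnv1, a potassium channel subunit gene, at -0.39. Lamp5 interneurons had their own list, without Lamp5 itself: 9 of 15 genes lay above 0, the median was 0.082 (0.032 when control array 1 was dropped, 0.046 when labelled KO array 2 was), and the list averaged 9.11 to 9.33 in the arrays labelled Dicer KO and 9.10 to 9.24 in the controls. This list also includes genes of interneurons at large, among them Gad1, Gad2 and Reln, and its median is the value of Gad1. Within the list Ndnf, which marks neurogliaform cells of layer 1, was at -0.35 and the synaptic vesicle gene Sv2c at -0.35 (-0.15 and -0.21 without control array 1), Npy was at -0.32 and Lsp1 at 0.36. The part of interneurons in the Lamp5 difference was not tested.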

How the data were processed

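The 6 arrays were grouped by their titles. The deposited log2 values, 1 per probe set and array, were made by the authors with RMA and limma, per the submitters' processing notes, which give no version. How background was corrected is not given in the sources used here, and RMA shrinks differences of dim transcripts. Of 35557 rows, 21789 probe sets had 1 gene symbol and were kept, 1621 with several and 12147 without a listed gene were not. Of these, 21698 were matched through the gene identifier to symbols of assembly GRCm38.p6. The brightest probe set of each of 999 genes with several was used, leaving 19938 genes.

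Differences were fitted with limma 3.58.1 in R 4.3.3 (a single group term, 4.89 prior degrees of freedom), and p-values were adjusted by Benjamini-Hochberg across the 19938 genes, with a threshold of 0.05. The steps were tested on simulated data. The labels call the arrays biological replicates. Lists were described by counts and medians, without tests. The genes named are the 9 layer genes, up to 4 genes of smallest p per layer list and 3 per cell type list, and the closest array patterns. In the Lamp5 interneuron list 4 genes were named. Dicer1, Slc17a7, Gad1, Eif2s3y and 2 microRNA genes were added. Members and lists were chosen with earlier results of these data known. No file gives detection calls, so how far signals lie above background is unknown, and 3 arrays per group limit the precision. Arrays differed in at least 35523 rows pairwise, so none is a copy.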

Additional observations from a re-analysis of the deposited data

How the results depend on the processing

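Lamp5, Pcp4, Cux2, Rorb and Bcl11b kept their direction in 16 of 16 refits, but with 1 array left out Cux2 ranged from -0.20 to -0.069, Rorb from 0.049 to 0.25 and Bcl11b from 0.0067 to 0.21. The number of layer genes past the threshold was 1, Lamp5, after subtracting array medians (adjusted p = 0.0485), with brighter genes only (0.0354), a trended and robust prior (0.0477), array weights (0.00512) and a threshold of 0.1, and 0 to 1 with 1 array left out. The array weights were 5.18 for labelled KO array 1, against 0.66 and 0.43 for labelled KO arrays 2 and 3, so that fit leaned on 1 animal. The number of layer genes past the threshold was 0 with a second quantile normalization, averaged probe sets, every row tested and an unmoderated test. It was also 0 with the animal's sex in the model. Sex was read from 1 Y-linked gene, Eif2s3y, at 9.13, 4.25 and 9.29 in the arrays labelled Dicer KO and 3.94, 9.07 and 4.44 in the controls. By this reading labelled KO arrays 1 and 3 and control array 2 were male, an uneven split. With sex in the model Lamp5 was at -1.06 ± 0.18 (SE). The array numbers were checked for pairing through deviations from group means. Same-numbered arrays correlated with r of 0.089, 0.17 and 0.29, and each labelled KO array was closest to its same-numbered control. Differently numbered arrays had r of -0.23 to 0.094, the highest being control array 1 with labelled KO array 2. The titles name no pairs, so the main fit took none, and whether the numbers mark a shared block was not tested. With the array number as a block limma called 215 genes, Lamp5 among them as the 1 layer gene (adjusted p = 0.0444) and, of the 101 genes of the other layer lists, Wfs1 (0.0297) and Htr2c (0.0406). Over all genes limma called 56, against 178 for brighter genes only, 1116 with array weights and 320 at a threshold of 0.1. It called 0 with every row tested (3725 at an unadjusted p under 0.05), 0 with the sex covariate (2292), and the unmoderated test called 0 (2403). Leaving out 1 array gave 0 to 129 genes, with 129 without labelled KO array 3 and 2197 to 2532 at an unadjusted p under 0.05 in the others. The median of the layer genes was -0.017 after subtracting array medians and -0.019 to 0.035 with 1 array left out. Differences near 0 changed sign. Cux1 was at -0.017 after subtracting array medians, -0.041 with array weights and -0.080 to 0.059 with 1 array left out. Tbr1 was at 0.012 with array weights and -0.069 to 0.023 with 1 array left out. Foxp2 ranged from -0.11 to 0.26 and Fezf2 from -4.17e-06 to 0.26 with 1 array left out. The cause of these changes was not tested.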

Other observations

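Interneuron markers belong to cells that are expected to keep Dicer under the CamKII driver, which was not tested here. Of 18 measured GABAergic interneuron markers 10 lay above 0, with a median of 0.080 that was 0.21 without control array 1 and -0.026 without control array 2. Htr3a, an ionotropic serotonin receptor subunit of one interneuron class, was at 0.51 ± 0.14 (SE; limma adjusted p = 0.153) and the neuropeptide gene Vip at 0.32 ± 0.12 (SE; adjusted p = 0.256), which was 0.21 without control array 1. Both were higher in every array labelled Dicer KO than in every control, and neither passed the threshold. In the list 5 of 18 genes were higher without overlap and 0 lower, where 20.3% of all genes (27.8% of the brighter) showed no overlap in either direction. The 8 genes below 0 reached -0.47, and 1 of them had an unadjusted p under 0.05 (limma). Gad1, which makes GABA, was at 0.082 ± 0.13 (SE).

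Markers of the tissue next to the cortex varied by array. Of 9 measured choroid plexus markers 4 lay above 0 and 5 below, with a median of -0.027. The 1 with the highest difference, Ttr, read 9.85, 10.95 and 8.30 in the arrays labelled Dicer KO, against 8.73, 8.34 and 8.18 in the controls. Its difference was 1.28 ± 0.53 (SE; limma adjusted p = 0.319), 0.66 without labelled KO array 2, and 1.98 with a pass without labelled KO array 3 (adjusted p = 0.038). The 11 thalamic markers were split, with 5 above 0, 6 below and a median of -0.016. Among them Ntng1, named above as a reported Tbr1 target, was the lowest at -0.63, and Ramp3 was at -0.62 ± 0.16 (SE; limma adjusted p = 0.136). Endothelial and mural markers had 6 of 8 genes above 0, oligodendrocyte markers 7 of 10.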
